A study of Saccharomyces cerevisiae with 2 samples.

Results

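The yeast deletion strains described here lack a gene of galactose use or of the Snf1 kinase, and they were chosen as the named genes GAL1, GAL2, GAL3, GAL4, GAL7, GAL10, GAL80, GAL83, SNF1 and SNF4. All 10 were measured, among 5325 named deletion strains of Saccharomyces cerevisiae. The study looked for deletions that are lethal together with excess LCD1, as its title says, and the arrays compared a pool of haploid deletion strains carrying a GAL1-LCD1 plasmid (the LCD1 pool) with a pool carrying a control plasmid (the control pool). LCD1 encodes a protein that binds the checkpoint kinase Mec1, and on the plasmid it is driven by the galactose-inducible GAL1 promoter. Both plasmids were selected by URA3, both pools came from the same collection of heterozygous diploids that can be converted to haploids, and both were selected as haploids for 3 days at 30 °C with 2% galactose as the only carbon source. The galactose pathway therefore both fed the cells of each pool and switched on LCD1 in 1 of them.

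Galactose enters the yeast cell through the permease Gal2 and is turned into glucose-1-phosphate by the galactokinase Gal1, the uridylyltransferase Gal7 and the epimerase Gal10. The activator Gal4 turns these genes on. Gal80 holds Gal4 inactive, and Gal3, a relative of Gal1 that senses galactose, lifts that hold. Genes kept off by glucose also need the Snf1 kinase, the yeast AMP-activated kinase, which works with the activating subunit Snf4 and with Gal83 or another beta subunit. Haploids without GAL1, GAL7, GAL10, GAL4, SNF1 or SNF4 are known to grow poorly or not at all on galactose alone. Whether their tags were scarce in both pools was not measured here, and their readings are given as ratios of tag signals, not as growth.

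Each strain carries a pair of short DNA tags, amplified from genomic DNA and read on 2 two-colour arrays, array 1 and array 2. A value is the log2 tag ratio, LCD1 pool over control pool, with 0 at the median of all strains for each tag and array. This direction is the likely one and not a stated one. It rests on the LCD1 deletion strain, which can live only with the LCD1 plasmid and which was highest of the 5325 strains at 2.63 ± 0.0086 (SD, n = 2), and on the usual order of Cy5 over Cy3 in scanner ratios, so the rank of that strain is no independent evidence. The small SD of the LCD1 strain is that of tag averages: its first tag read 4.24 and 4.97 and its second 1.01 and 0.30, all above 0. Its deposited first-tag ratios, 0.05 and 0.03, are rounded to hundredths. That rounding leaves a width of 0.29 and 0.49 on the log2 scale, so these first-tag readings and the SD are less exact than printed. In the opposite direction every sign below would turn. The LCD1 pool was Cy3 and the control pool Cy5 on both arrays, so dye and pool cannot be told apart. The sample titles number the arrays as experiments 1 and 2 but do not say whether these started from separate cultures, so p-values measure the spread between these arrays, which may be technical. The array holds 2 blocks of features, whose tags are named first and second by their order on the array, as which is upstream is not stated. Signal intensities were not analysed here, so signal over background is unknown, and the number of arrays limits the precision.

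Among the 10 strains, those without the enzyme genes GAL10 and GAL7 had the lowest means, -2.55 and -1.35, with the low readings in the first tag. The strains without GAL3, SNF4 and SNF1 had means between -0.65 and -0.34, and those without GAL1, GAL83, GAL4, GAL2 and GAL80 between -0.17 and 0.53. By limma 0 of the 10 passed an adjusted p of 0.05, and 0% of all strains did (lowest adjusted p 0.0941). Before adjustment 4 of the 10 had a limma p under 0.05, namely GAL10, GAL7, GAL3 and SNF4, all with means below 0, beside 10.8% of all strains below 0 and 11.6% above. By a size rule, which asks for a 2-fold or larger ratio of one sign on each array, 2 of the 10 were lower (GAL10 and GAL7) and 0 higher, beside 1.82% lower and 0.695% higher among all strains. The list was chosen with earlier results of these data known, so the counts describe it and support nothing further. The median of the 10 strains was -0.23 on array 1 and -0.28 on array 2.

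**Figure D1:**
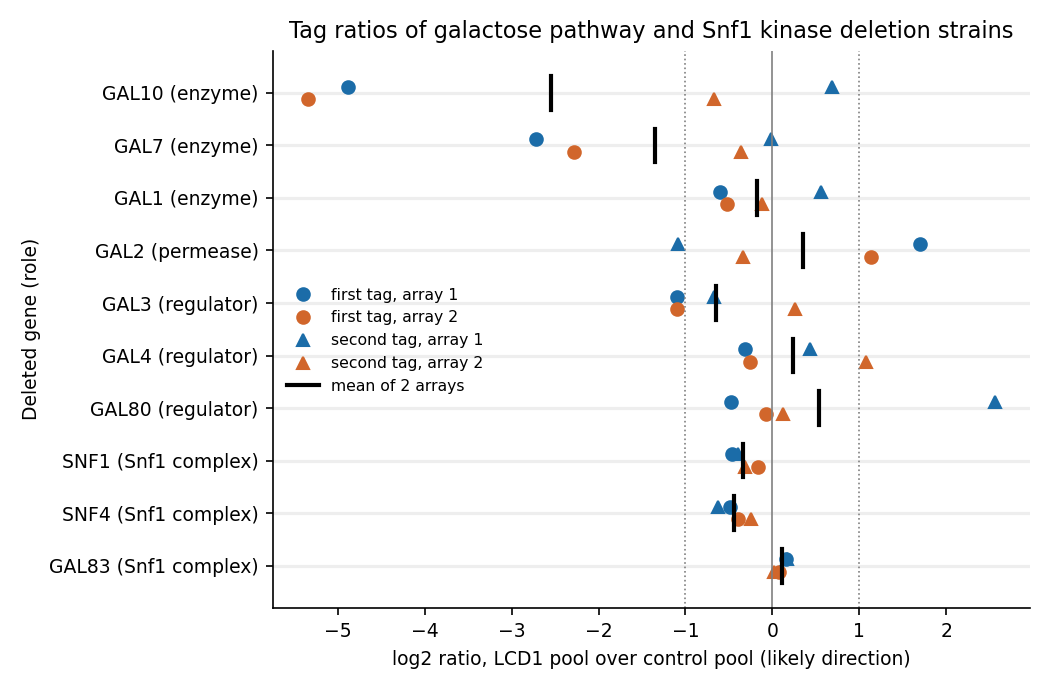
Log2 tag ratio, LCD1 pool over control pool (horizontal axis), for each deletion strain (vertical axis), with circles for the first tag, triangles for the second, blue for array 1, orange for array 2, a bar for the mean of 2 arrays and dotted lines at 2-fold. The first tags of GAL10 and GAL7 lie far to the left of their second tags, while the 4 values of SNF1, SNF4 and GAL83 lie close together.

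The GAL10 strain lacks the epimerase, which interconverts UDP-galactose and UDP-glucose. On arrays 1 and 2 its first tag read -4.88 and -5.35, which ranked 7 and 3 from the lowest among 5322 and 5325 first tags. Its second tag read 0.69 and -0.67. The first tag was thus at an extreme on both arrays, and the second changed sign between them. The strain mean was -2.55 ± 0.65 (SD, n = 2), rank 12 from the lowest of 5325, with an adjusted p of 0.113 by limma. The deposited first-tag ratios, 27.72 and 38.23 with, in the likely direction, the control pool on top, are large numbers to which rounding to hundredths adds almost no error. The difference between its first and second tag was -5.57 on array 1 and -4.68 on array 2 (mean -5.12 ± 0.63, SD, n = 2, limma adjusted p 0.214).

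The GAL7 strain lacks the transferase that passes UMP to galactose-1-phosphate. Its first tag read -2.71 and -2.28 on arrays 1 and 2, ranks 78 and 87 from the lowest, and its second tag -0.02 and -0.37. All 4 values were below 0, and the tags did not overlap. The mean of -1.35 ± 0.030 (SD, n = 2) is 2.54-fold lower and ranked 77 from the lowest, with an adjusted p of 0.113 by limma. The small SD is that of tag averages: the first tag minus the second was -2.69 on array 1 and -1.92 on array 2.

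The GAL1 strain lacks galactokinase, the first enzyme of the pathway, and the platform names 2 features for it in each tag block. In the first block 1 feature read -2.56 on array 1 and -1.70 on array 2, while the other read 1.35 and 0.65. In the second block the features read 1.19 and 0.12, and -0.07 and -0.35. The 2 first-tag features thus disagreed in sign on both arrays, with a gap of 3.91 on array 1 and 2.35 on array 2. Over the 181 pairs of a gene and a tag with 2 features, the median gap was 0.44 and 0.36, and 1 pair on array 1 (GAL1 itself) and 3 on array 2 reached those of GAL1. Averaging such features gave GAL1 a mean of -0.17 ± 0.21 (SD, n = 2, limma adjusted p 0.498), and the value was -0.74 with the first feature of each block alone and 0.39 with the last alone, choices made after seeing the data. The sources used here do not say whether the 2 features belong to 1 strain, so the mean for GAL1 is uncertain.

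**Figure D2:**
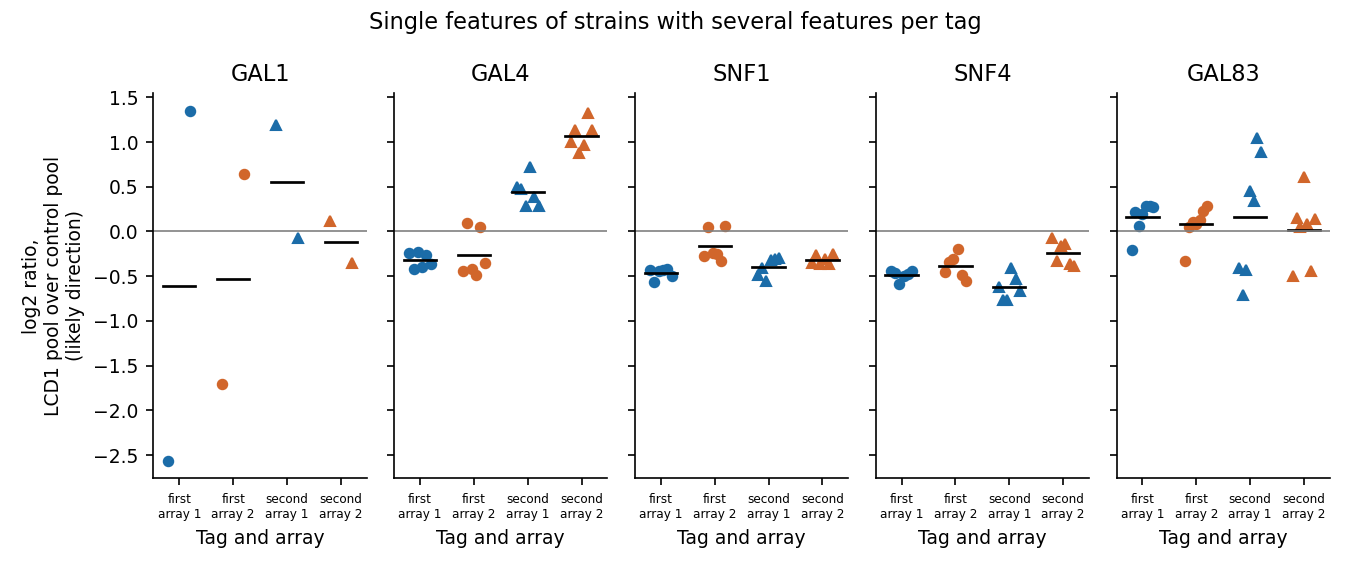
Log2 ratio of each single feature (vertical axis) by tag and array (horizontal axis) for the 5 strains with several features per tag, with a line at the mean. The first-tag features of GAL1 lie on opposite sides of 0, those of SNF1 and SNF4 within a narrow band, and those of GAL4 form separate bands for the first and the second tag.

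GAL7, GAL10 and GAL1 are neighbours on one chromosome, and the strains lacking the genes next to them offer a comparison by position. The first tags of the 3 flanking genes on each side, MNN2, CPP1, KAP104, FUR4, POA1 and CHS3, lay between -0.66 and 1.91. Of these 6 strains 0 passed the size rule, beside 1.82% lower and 0.695% higher among all strains. All of these first tags were above those of GAL7 and GAL10, as were those of most strains. The lowest flanking first tags on both arrays belonged to KAP104, a nuclear import receptor gene beside GAL7. Its first-tag values were -0.66 and -0.43 and its second-tag values 0.63 and 0.68. The first-tag averages of GAL1, -0.61 and -0.53, lay above KAP104 on array 1 and below all flanking strains on array 2. These averages join 1 feature at -2.56 and -1.70 with 1 at 1.35 and 0.65. FUR4, the uracil permease gene beside GAL1, had 4 values between 0.22 and 0.35. POA1 held a single low value, -2.23 for the second tag on array 1, against -0.11 on array 2.

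**Figure D3:**
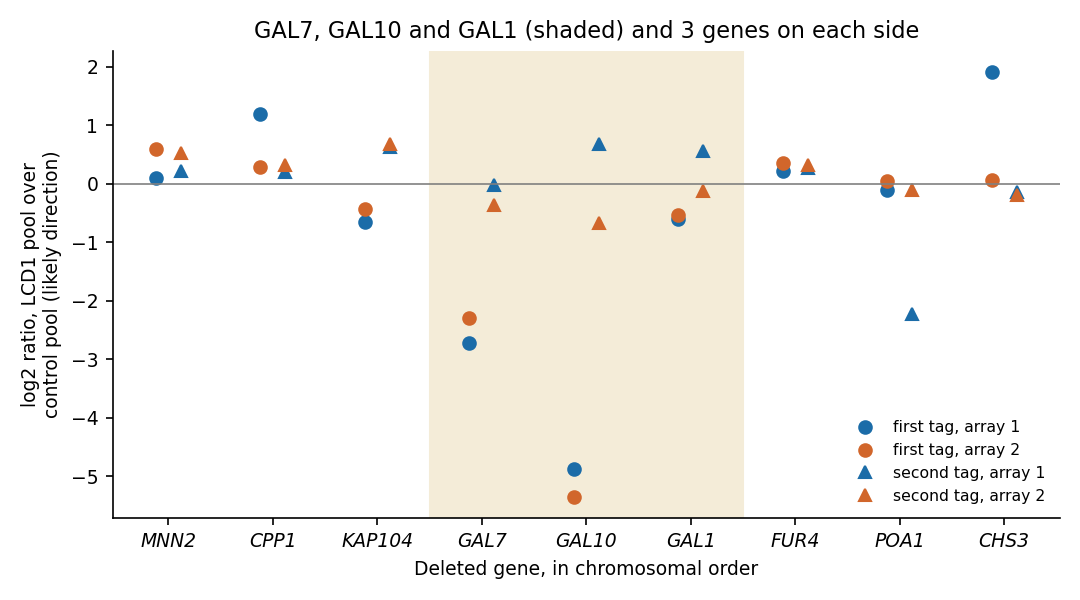
Log2 tag ratio (vertical axis) of strains lacking GAL7, GAL10 and GAL1 (shaded) and 3 genes on each side, in chromosomal order (horizontal axis), with circles for the first tag, triangles for the second, blue for array 1 and orange for array 2. The first tags of GAL7 and GAL10 stand below all flanking strains.

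The GAL2 strain lacks the galactose permease. Its first tag read 1.70 and 1.13, ranks 135 and 159.5 from the highest, and its second tag -1.08 and -0.34. The tags thus pointed in opposite directions on both arrays. Their average, 0.31 and 0.39 (mean 0.35 ± 0.061, SD, n = 2, limma adjusted p 0.231), hides that gap of 2.13 ± 0.93. By its first tag alone GAL2 would be at least 2-fold higher on both arrays, as were 1.83% of strains.

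Among the regulators, the strain without GAL3, the galactose sensor, was the lowest. Its first tag read -1.10 on each array, and its second tag -0.67 and 0.26. The first tag repeated closely while the second changed sign. The mean was -0.65 ± 0.33 (SD, n = 2), rank 303 from the lowest, with a limma adjusted p of 0.185. By the first tag alone GAL3 joined GAL10 and GAL7 on the lower side of the size rule, so 3 of the 10 were lower there, beside 5.09% of all strains. By the second tag alone 0 of the 10 were lower or higher, beside 0.565% and 1.51%.

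The strain without GAL4, the activator, had 6 features per tag. Its first tag averaged -0.32 and -0.26 on arrays 1 and 2, and its second tag 0.44 and 1.07. On array 1 the first-tag features lay between -0.42 and -0.22 and the second-tag features between 0.28 and 0.72. On array 2 they lay between -0.49 and 0.10, and between 0.88 and 1.32. The features of the 2 tags did not overlap on either array, so the gap between the tags was wider than the spread between spots. The average over tags was 0.23 ± 0.24 (SD, n = 2, limma adjusted p 0.408), and the first tag minus the second was -1.04 ± 0.41 (limma adjusted p 0.285).

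The strain without GAL80, the inhibitor of Gal4, had the highest mean of the 10, 0.53 ± 0.72 (SD, n = 2, limma adjusted p 0.362). A single value set it. On arrays 1 and 2 the second tag read 2.56 and 0.12, and the first tag -0.48 and -0.07. Without array 1 the strain stood at 0.02, and without array 2 at 1.04. Second tags differed by at least 2 on the log2 scale between arrays in 3.54% of strains, and first tags in 1.83%.

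The median of the enzyme strains lay below that of the regulator strains on both arrays in the average over tags, at -1.37 and -1.33 for GAL1, GAL7 and GAL10, against 0.06 and 0.02 for GAL3, GAL4 and GAL80. The difference of medians was -1.39 ± 0.058 (SD, n = 2). The regulator median was that of GAL4 on array 1 and that of GAL80 on array 2. GAL80 itself read 1.04 and 0.02, so this small SD is not the spread of 1 pair of strains. GAL1, at -0.02 and -0.32, nonetheless lay above GAL3, at -0.88 and -0.42. The difference of medians lay in the first tag, where it was -2.24 and -2.02. In the second tag it was 0.12 and -0.63, with opposite signs on the arrays. The enzyme median in the average over tags and in the first tag is that of GAL7, since GAL10 lies below and GAL1 above it. With 2 arrays an exact sign test could not go below a p of 0.5, so none was made.

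The 3 Snf1 kinase strains gave tag averages that repeated across tags, though for GAL83 the single features disagreed. They rest on 6 or 7 features per tag, whereas the GAL10 and GAL7 strains have 1 feature per tag and GAL1 has 2. The strain without SNF1, the catalytic subunit, read -0.46 and -0.16 for the first tag and -0.40 and -0.32 for the second. The strain without SNF4, the activating gamma subunit, read -0.49 and -0.39 for the first tag and -0.63 and -0.24 for the second. All 8 of these values were below 0, and none reached 2-fold. The means were -0.34 ± 0.13 for SNF1 (limma adjusted p 0.259) and -0.44 ± 0.17 for SNF4 (0.21, SD, n = 2 each), so neither passed. With GAL7, the SNF1 and SNF4 strains were the 3 of the 10 with all 4 values below 0, beside 16.4% of all strains, and with GAL83 the 4 of one common sign, beside 33.2%.

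Each of these strains had 6 features per tag, with SDs between features of 0.053 to 0.17 for SNF1 and 0.056 to 0.14 for SNF4. For all genes with 5 to 7 features in a block the median SD was 0.082 on array 1 and 0.15 on array 2. The 6 second-tag features of SNF1 lay between -0.55 and -0.30 on array 1 and between -0.37 and -0.25 on array 2. For SNF4 every feature of both tags lay below 0 on both arrays, from -0.77 to -0.08. The first tag of SNF1 on array 2 was the exception among these, with features from -0.33 to 0.06. The first tag minus the second was 0.04 ± 0.16 for SNF1 and -0.0030 ± 0.20 for SNF4 (SD, n = 2 each).

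The strain without GAL83, 1 of the beta subunits that place the kinase in the cell, read 0.16 and 0.08 for the first tag and 0.17 and 0.01 for the second (mean 0.11 ± 0.083, SD, n = 2, limma adjusted p 0.625). Its 4 averages lay near 0, but its 7 second-tag features ranged from -0.71 to 1.05 on array 1. Their SD was 0.69 on array 1 and 0.38 on array 2. Gal83 shares its place in the kinase with Sip1 and Sip2. The SIP1 strain stood at 0.68 ± 0.23, from first-tag values of 1.81 and 1.17 and second-tag values of -0.13 and -0.13. The SIP2 strain stood at 0.93 ± 1.22, a mean set by a second-tag reading of 3.89 on array 1 against 0.28 on array 2. Its first tag read -0.31 and -0.15. The SNF1 and SNF4 strains lay below 0 on every tag average and none of the 3 beta subunit strains did. Among all strains 16.4% did, so its absence in the beta subunit strains does not set them apart.

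**Figure D4:**
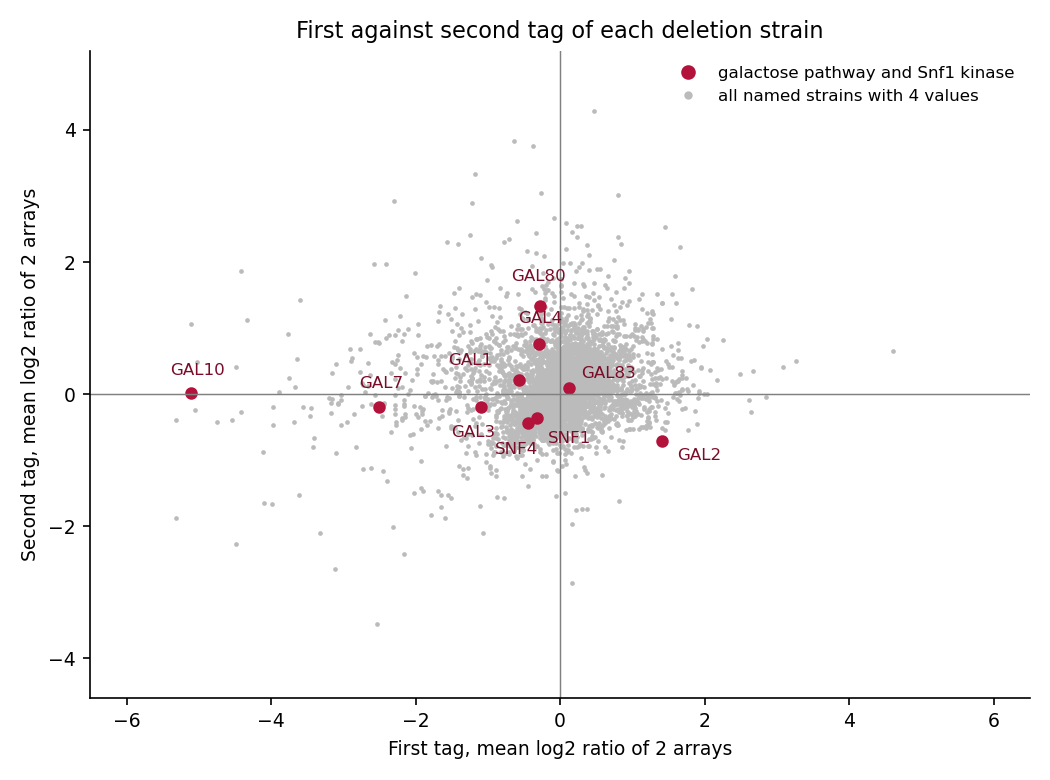
Mean log2 ratio over 2 arrays of the second tag (vertical axis) against that of the first tag (horizontal axis) for 5309 deletion strains with 4 values (grey) and the 10 galactose and Snf1 strains (red). GAL10 and GAL7 lie far to the left near the horizontal line, GAL2 to the lower right, and SNF1 and SNF4 close together near the centre.

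Over the 10 strains the tags did not overlap between arrays in 7, beside 51.6% of all strains, and had opposite signs on both arrays in 3 (GAL2, GAL4 and GAL80), beside 15.6%. The median absolute difference between tags over all strains was 0.38 on array 1 and 0.34 on array 2. For SNF1, SNF4 and GAL83 the absolute difference was at most 0.15 on each array, while the signed difference of GAL10 was -5.57 and -4.68. In limma's test of the tag difference 0 of the 10 passed, as did 0% of all strains (lowest adjusted p 0.214). Before adjustment 4 of the 10 had a p under 0.05 in that limma test, GAL10, GAL7, GAL2 and GAL4, beside 14.9% of all strains. A first tag at -2 or lower on both arrays with a second tag above -1 on both, bounds chosen after seeing the values, was found for GAL10, GAL7 and 62 other strains (1.21% in all).

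In order of their means from the lowest, the strains were GAL10, GAL7, GAL3, SNF4, SNF1, GAL1, GAL83, GAL4, GAL2 and GAL80. In 6 of the 9 neighbouring pairs of that order the array values, each an average over tags, overlapped. The separate pairs were GAL10 below GAL7, GAL7 below GAL3, and GAL1 below GAL83. By the second tag alone GAL10 lay above GAL7 on array 1, 0.69 against -0.02, and below it on array 2, -0.67 against -0.37. The mean of GAL1 is uncertain: with the last feature of each block alone GAL1 stood at 0.39 and GAL83 at 0.40.

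Wider lists of 50 genes of glucose and galactose control held 48 measured strains, of which 22 lay below 0 and 26 above, with a median of 0.06 beside 0.04 for all strains. By the size rule 1 was lower and 1 higher, beside 1.82% and 0.695% of all strains, and by limma 0 passed. With so few strains the counts do not set the lists apart from all strains. The lower one lacked CYC8, which encodes part of the Cyc8-Tup1 corepressor, and stood at -1.73 ± 0.27 (SD, n = 2). Its first tag read -3.21 and -3.13 and its second -0.63 and 0.05. The strain without its partner TUP1 had first-tag values of 0.18 and -3.18 and second-tag values of -0.56 and 2.82. Its tags lay far apart in opposite directions on array 2, and the mean of -0.19 ± 0.0085 comes from their cancelling. The higher one lacked HCM1, a forkhead transcription factor gene, and stood at 1.46 ± 0.18 (SD, n = 2), with all 4 values between 0.96 and 2.22.

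Of the 6 further galactose and glucose-phosphate strains 5 had means below 0, beside 2445 of all 5325 strains. The means of 3 of these, LAP3, PGM1 and UGP1, were within 0.15 of 0. For UGP1 that mean comes from tags that cancel, with -0.90 and -0.85 for the first and 0.20 and 0.97 for the second. The lowest of the 6 lacked PGM2, the main phosphoglucomutase, which follows the Gal enzymes by turning glucose-1-phosphate into glucose-6-phosphate. Its first tag read -1.24 and -1.66 and its second -0.91 and -0.11, all below 0, with a mean of -0.98 ± 0.14 (SD, n = 2, limma adjusted p 0.121). The strain without its paralogue PGM1 stood at -0.11 ± 0.18. The strain without the Mediator gene GAL11 stood at -0.90 ± 0.31, and the highest of this list, without MTH1, at 0.06 ± 0.040.

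Among the 5 strains in the list of the Snf1 phosphatase and its partners, the lowest lacked REG1, which directs the phosphatase Glc7 to Snf1. REG1 stood at -0.91 ± 0.23, again with the first tag far below the second, -2.27 and -2.02 against 0.77 and -0.14. GLC7, the essential catalytic gene, read 1.07 ± 1.06, and its second tag held 3.15 on array 1 against -0.26 on array 2. Of the 3 upstream kinases that activate Snf1, the strains without SAK1, TOS3 and ELM1 stood at -0.34 ± 0.11, 0.11 ± 0.062 and -0.01 ± 0.054. In the list of repressors the highest strain lacked MIG2 (0.47 ± 0.79), and the strain without MIG1, the main glucose repressor that Snf1 inactivates, stood at 0.44 ± 0.053 (SD, n = 2 throughout). The small SD of MIG1 is that of tag averages: its first tag read 0.57 and 0.15 and its second 0.39 and 0.65.

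Of the 8 strains lacking activators downstream of Snf1, 4 lay on each side of 0, with MSN2, a stress response activator, lowest at -0.70 ± 0.38. Of the 10 measured glucose sensing and hexose transport strains, 5 lay on each side, from RGT1 at -0.42 ± 0.070 to the hexose transporter gene HXT4 at 1.04 ± 0.14. HXT4 had 4 values between 0.89 and 1.27. Of the 6 gluconeogenesis and glyoxylate strains 2 lay below 0 and 4 above, from the isocitrate lyase gene ICL1 at -0.54 ± 0.27 to the malate dehydrogenase gene MDH2 at 0.34 ± 0.18 (SD, n = 2 throughout).

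**Figure D5:**
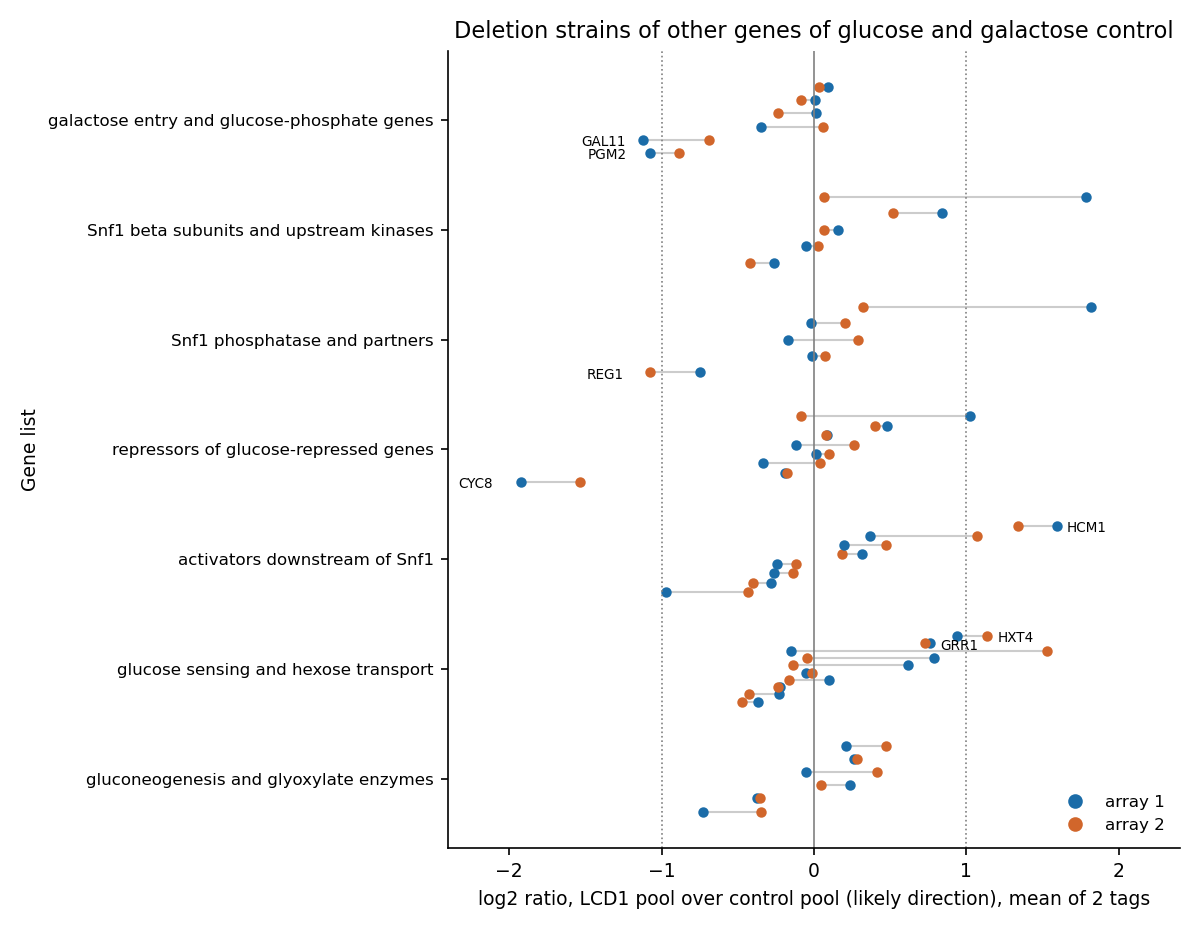
Log2 ratio averaged over both tags (horizontal axis) on array 1 (blue) and array 2 (orange), joined by a line for each deletion strain, for 7 gene lists (vertical axis), with dotted lines at 2-fold. CYC8 and HCM1 are beyond 2-fold on both arrays, and the longest lines mark strains whose arrays disagree.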

How the data were processed

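Tag signals of the pools were compared on 2 Hopkins tag arrays, each with 2 dyes. Per the labels' protocols, control-pool tags carried Cy5 and LCD1-pool tags Cy3, and images were read with a GenePix scanner and GenePix 5.1. The deposited log2 values are dye ratios: turned back to linear ratios, 100% were whole hundredths within 0.001. For the normalization and the dye on top, no statement is given in the sources used here. The sign was turned. Within each tag block the features of a gene were averaged. The median over genes was then subtracted per block and array, and the strain value is the mean of its 2 tags. The platform annotation named 18794 features for 5325 strains, with symbols updated through the R64 gene table (4 symbols unmatched), which also gave the neighbouring genes. Strains were tested against 0 with limma 3.58.1 in R 4.3.3 (lmFit, eBayes, two-sided, Benjamini-Hochberg over all strains, 1 residual degree of freedom). The difference between tags was tested likewise over the 5309 strains with both tags on both arrays. The code was tested on simulated data.

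The 10 strains and the wider lists were chosen with earlier results of these data known. All 10 are described. From each wider list the text names strains past the size rule and the lowest and highest, and a few relatives of the 10 (TUP1, PGM1, GAL11, SIP1, SIP2, SAK1, TOS3, ELM1, MIG1) were added for their roles. HXT6 and HXT7 had no named feature. Alternatives covered centring, scaling, single tags, thresholds, the features used, limma on 4 tag values and leaving out either array. A list of essential genes was not used.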

Additional observations from a re-analysis of the deposited data

Results flagged for a closer look

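In 3 strains both arrays of one tag lay on one side of 0 and both arrays of the other tag on the opposite side. The first tag minus the second was 2.13 for GAL2, -1.04 for GAL4 and -1.62 for GAL80 (means of 2 arrays). By limma the difference between tags did not pass in any of them, with adjusted p values of 0.255, 0.285 and 0.496. The pattern was found in 15.6% of all strains with 4 values. For GAL80 the difference was -3.04 on array 1 and -0.19 on array 2.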

How the results depend on the processing

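With the first tag alone the enzyme minus regulator difference of medians was -2.13, 1 of the 10 strains was higher by the size rule, and GAL4 and GAL80 turned to -0.29 and -0.28. With the second tag alone that difference was -0.25, 0 were lower, and GAL10, GAL1 and GAL2 turned to 0.011, 0.22 and -0.71. When every tag on every array had to pass 2-fold, 0 of the 10 were lower. Leaving out either array gave 2 lower strains each time, 0 to 1 higher, and a difference of -1.43 to -1.35. Without centring, the tag differences of SNF1 and GAL83 turned to -0.033 and -0.044. With the first feature of each block alone GAL83 turned to -0.36, and GAL1 was -0.74 with the first alone and turned to 0.39 with the last alone, all choices made after seeing the data. Among all strains the size rule gave 97 lower and 37 higher, but 78 and 60 without centring, 270 and 98 with the first tag, 30 and 80 with the second, 231 and 206 at 1.5-fold, 20 and 8 with every tag, and 150 to 185 and 137 to 253 with 1 array. The cause was not tested. Limma on the 4 tag values passed 0 of the 10 strains, and no other setting with a test passed any. No paired analysis was possible because the series holds 1 group of 2 arrays. Signal over background is unknown and limits every value.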

Other observations

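The genes next to GAL2, GAL3, GAL4, GAL80, SNF1, SNF4 and GAL83 gave 12 measured strains. Of these 0 passed the size rule, beside 1.82% lower and 0.695% higher among all strains, so the count does not set them apart. The TRP1 strain, beside GAL3, had first-tag values of -1.25 and -1.55 and second-tag values of -0.36 and 0.30. TRP1 encodes an enzyme of tryptophan synthesis. The GYP5 strain, beside GAL4, had first-tag values of 1.07 and 1.51 and second-tag values of -0.0044 and -0.09.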
